A study of Mus musculus with 12 samples.

Results

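The step from the GO to the FGO stage was followed in control mouse oocytes, through 10110 of the 25162 genes of the deposited expression table. The genes were chosen by level alone: each had a mean of at least 1 FPKM (fragments per kilobase of transcript, scaled to sequencing depth) over the table's 6 columns. The column for FGO oocytes was compared with the column for GO oocytes. The labels do not spell these names out. They are commonly read as non-growing, growing and fully grown.

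The series measured polyadenylated RNA of oocytes in 12 samples, 2 for each of 2 genotypes and 3 stages, with 10 oocytes in a sample. The controls are labelled WT and headed Rnaseh1 fl/fl, so they carry floxed alleles of Rnaseh1, the gene of the nuclease RNase H1 that degrades RNA paired to DNA. The other genotype is labelled KO and headed oo-/-, and serves here only for values set beside the control ones. Strain, age and the driver of the deletion are not given in the labels. Each sample received 100 pg of ERCC spike-in RNA before Smart-seq2 amplification from oligo-dT primers, and the authors adjusted the FPKM to that spike-in.

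The table holds 1 column for each genotype and stage and does not say whether it is a mean of both samples, a pool or 1 of them. No value therefore has a replicate check, and no SD, n or p-value is given. Differences are FGO minus GO on the scale of log2(FPKM + 1), which understates the change of low genes. A gene was called higher or lower at a difference of at least 1 in size, which is 2-fold on that scale. In bulk samples fewer RNA-bearing cells and less RNA per cell cannot be told apart.

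A growing oocyte is arrested in the prophase of meiosis and stockpiles the mRNAs and proteins that the egg and early embryo will use. As it reaches full size its genome becomes transcriptionally silent, and many stored mRNAs are held with short poly(A) tails until meiosis resumes. From then until the embryo starts its own transcription, RNA levels are set mainly by storage, polyadenylation and decay.

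Promoter sequences are shown first for the 2 largest called rises and the 2 largest called falls that had a printable window in RefSeq on GRCm38.p6. The choice was limited to genes over 0.05 FPKM in both columns, which left out Ifi47, a fall of -3.58 with 2 CG in its window (0.0391 FPKM in FGO). They are shown because the share of genes called higher in FGO differed with the number of CG dinucleotides near the start, as described below. Each runs 5′ to 3′ on the plus strand of the genome, which is also the strand of all 4 genes, from 250 bases before to 50 bases after the annotated start. Capitals mark CG dinucleotides. The windows are chrX:45090654-45090953 for Prr32, chr6:145615713-145616012 for Tuba3b, chr4:136143572-136143871 for Id3 and chr7:127712453-127712752 for Ctf1.
Prr32: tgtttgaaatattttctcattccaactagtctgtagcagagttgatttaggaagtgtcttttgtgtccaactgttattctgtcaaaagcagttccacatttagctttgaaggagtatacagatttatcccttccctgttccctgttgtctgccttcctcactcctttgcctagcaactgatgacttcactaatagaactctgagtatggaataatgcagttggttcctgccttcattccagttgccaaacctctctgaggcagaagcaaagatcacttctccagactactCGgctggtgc
Tuba3b: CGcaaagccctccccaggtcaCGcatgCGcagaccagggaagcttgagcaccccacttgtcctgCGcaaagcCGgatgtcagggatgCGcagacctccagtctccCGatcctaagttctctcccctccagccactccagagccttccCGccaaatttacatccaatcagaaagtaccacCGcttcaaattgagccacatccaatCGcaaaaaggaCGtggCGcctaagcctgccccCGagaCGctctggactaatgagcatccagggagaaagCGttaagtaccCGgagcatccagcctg
Id3: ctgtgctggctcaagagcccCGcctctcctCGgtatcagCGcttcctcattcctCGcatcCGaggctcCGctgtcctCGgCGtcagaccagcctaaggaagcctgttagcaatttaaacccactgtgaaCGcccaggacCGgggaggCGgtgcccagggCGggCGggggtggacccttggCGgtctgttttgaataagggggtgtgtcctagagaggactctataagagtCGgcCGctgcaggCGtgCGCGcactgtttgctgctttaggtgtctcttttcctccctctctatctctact
Ctf1: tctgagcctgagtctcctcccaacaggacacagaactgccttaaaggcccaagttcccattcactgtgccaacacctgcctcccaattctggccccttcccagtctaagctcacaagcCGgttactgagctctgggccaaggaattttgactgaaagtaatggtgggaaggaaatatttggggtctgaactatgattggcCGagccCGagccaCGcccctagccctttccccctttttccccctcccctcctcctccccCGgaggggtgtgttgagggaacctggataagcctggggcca
The window of Prr32 holds 1 CG, that of Tuba3b 16, that of Id3 19 and that of Ctf1 5. These 4 windows alone do not follow a rule, since Tuba3b was higher in FGO with 16 and Ctf1 was lower with 5.

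Most genes were at similar levels in both columns. Of the 10110 genes, 657 (6.5%) were called higher in FGO, 932 (9.22%) were called lower and 8521 lay between. The median difference was 0.08, and the quartiles were -0.38 and 0.45. The summed FPKM was 384421 in GO and 460906 in FGO, a ratio of 1.20. The median FPKM of the genes compared was 9.47 in GO and 9.48 in FGO.

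Rescaling removes a shift shared by most genes: every gene's ratio to its geometric mean over the 6 columns was taken, and each column was divided by the median of its ratios. After rescaling, 584 genes were called higher (5.78%) and 842 lower (8.33%), and the median difference was 0.06. These factors were 0.51 for NGO, 1.29 for GO and 1.31 for FGO in controls. With both columns scaled to equal totals the split moved to 389 higher and 1184 lower, and the median became -0.15. The median then shifts by about -0.23, and genes of low FPKM shift less. The median of the proteasome list went from 0.46 to 0.20, that of immediate early and Id genes from -0.69 to -0.75. A list median a little above 0 can therefore change sign with this scaling. Of 44 gene lists, the medians of 20 did so. Lists are therefore described by their called members and by how many members lay above the median gene. A scaling of whole columns moves the median gene along with the members, but its effect on the second count was not examined. Calls do change with the scaling, as the split above shows.

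The medians and shares below come from the 2 columns that defined the calls, so their direction was fixed in advance. On this scale a gene under 1 FPKM in GO cannot be called lower. Of 355 genes at up to 1 FPKM in GO, 43.4% were called higher and 0% lower. Such genes passed the level filter through their values in other columns, FGO among them. The filter therefore favours higher calls in this class, and its 43.4% is no result about low genes. The genes called higher read low in GO. Their median FPKM was 3.23 in GO and 12.6 in FGO, and their share of the summed FPKM went from 2.64% to 6.74%. The genes called lower had a median of 6.82 FPKM in GO and 1.66 in FGO, and their share went from 4.29% to 1.17%. At least 4-fold differences were found for 110 genes in the higher and 119 in the lower direction. At least 8-fold differences were found for 22 and 10. Under 1 FPKM in GO and at 5 or more in FGO were 41 genes, and 57 genes showed the opposite.

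**Figure D1:**
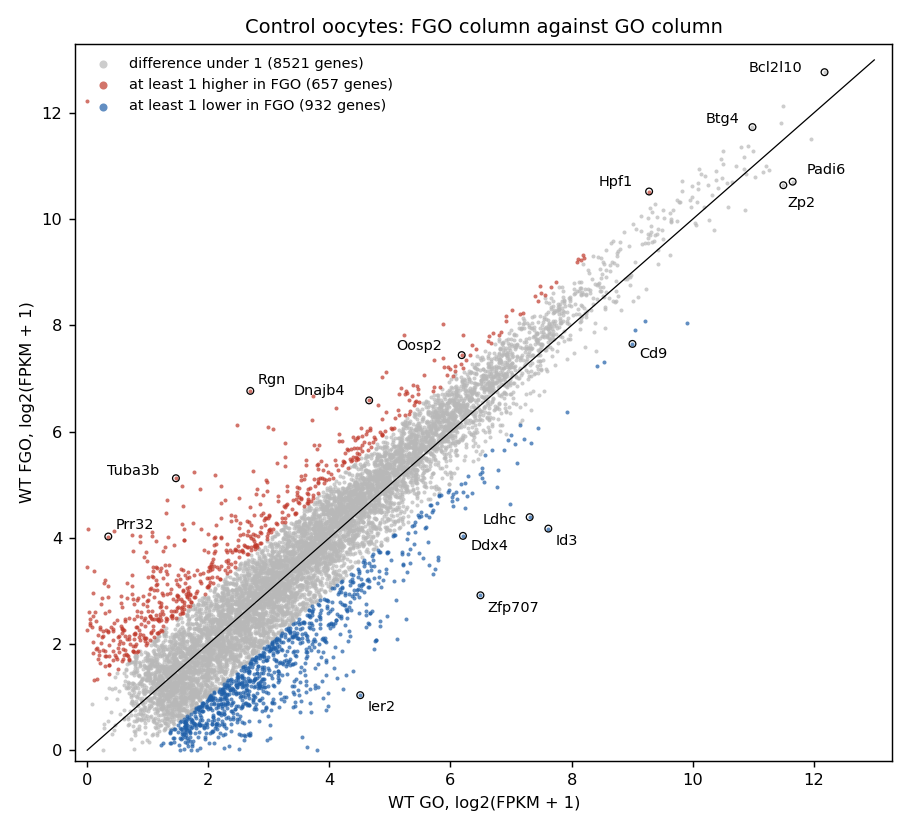
Each point is 1 of the 10110 genes, at log2(FPKM + 1) in the control GO column (x axis) and the control FGO column (y axis), with the line of equality. The 657 genes called higher lie above the line mainly at low GO values, the 932 called lower lie below it, and the circled genes are described in the text.

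The oocyte label was checked against markers. All 12 oocyte markers were compared and together summed to 13766 FPKM in GO and 11048 in FGO. Of 22 granulosa cell markers, the cells that surround the oocyte, 6 reached 1 FPKM in GO and 9 in FGO. Of the 10 that were compared, 3 were called higher and 0 lower, 9 lay above 0, and the median difference was 0.44. Amh was at 0.0844 and 0.0206 FPKM, and Foxl2 at 0.121 and 0.0130. Cyp19a1 (aromatase) was at 0.684 in GO and 6.16 in FGO, Esr2 (an oestrogen receptor) at 8.28 and 21.3, and the stromal gene Dcn at 0.0306 and 4.13. The part of such RNA in the rises was not tested. Rnaseh1 itself was at 27.8 FPKM in GO and 29.1 in FGO in the controls, and at 3.10 and 8.02 in KO.

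Among genes with a measurable value in both columns, the largest rises were of genes that were low in NGO and GO. Rgn, which encodes the calcium-binding protein regucalcin on chromosome X (20549766 to 20562089, GRCm38.p6), read 0.283 FPKM in control NGO, 5.47 in control GO and 108 in control FGO, 19.7-fold higher in FGO than in GO. Prr32, a proline-rich protein gene also on X, was listed at 0 in NGO and read 0.273 in GO and 15.3 in FGO. Tuba3b, an alpha-tubulin gene, read 0.135, 1.76 and 33.8 FPKM at the same stages. All 3 were lowest in NGO and highest in FGO.

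Several of the rises were of genes known from other tissues. Htr5a, a serotonin receptor, read 1.48 FPKM in GO and 25.1 in FGO. Slc6a15, a transporter of neutral amino acids, read 3.31 and 35.4. Lyn, a Src-family kinase, read 0.832 and 14.2, and the adhesion gene Cntn6 read 0.0815 and 9.37. All 20 largest rises were called higher in KO too after rescaling, and 19 of the 20 were under 1 FPKM in NGO.

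Other members of that group were Dnajc5b, a co-chaperone gene, at 2.40 and 36.7 FPKM, and Nmu, the gene of the peptide neuromedin U, at 1.09 and 15.5. Olfr288 read 6.94 and 66.8, and Cldn34b2 read 7.38 and 64.9. Olfr288, Cldn34b2, Tuba3b and Raet1d (1.95 and 30.3) each have another gene at least 95% identical over at least 50% of the transcript, so their reads could be split between copies. Of the 20, 4 lie on chromosome X, which held 328 of the 10110 genes compared.

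The largest falls were of genes already present in NGO. Zfp707, a zinc finger gene on chromosome 15 (75969123 to 75975868), was at 27.5 FPKM (NGO), 89.2 (GO) and 6.55 (FGO), a 13.6-fold lower level in FGO than in GO. Id3, which blocks DNA binding by helix-loop-helix factors, read 135, 195 and 17.0. Ier2, an immediate early gene, read 16.8, 21.8 and 1.05. As deposited, each was highest in GO and lowest in FGO. The NGO column is low as a whole (factor of 0.51 beside 1.29 for GO), so the order of NGO and GO can depend on the scaling.

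Scrn2 read 10.7 FPKM in GO and 0.187 in FGO. Ctf1, the gene of the cytokine cardiotrophin 1, read 14.3 and 0.695. Dusp2, a phosphatase of MAP kinases, read 17.8 and 1.23. Ldhc, a lactate dehydrogenase of germ cells, read 19.2 in NGO, 157 in GO and 19.9 in FGO. Its NGO and FGO values were close as deposited, but the factors of these 2 columns were 0.51 and 1.31. Ran, the small GTPase of nuclear transport, read 18.3 and 1.68, and Tgif1, a homeobox repressor, 37.5 and 4.56. None of the 20 largest falls was on chromosome X, which held only 328 of the 10110 genes compared. After rescaling, 18 of the 20 were called lower in KO.

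**Figure D2:**
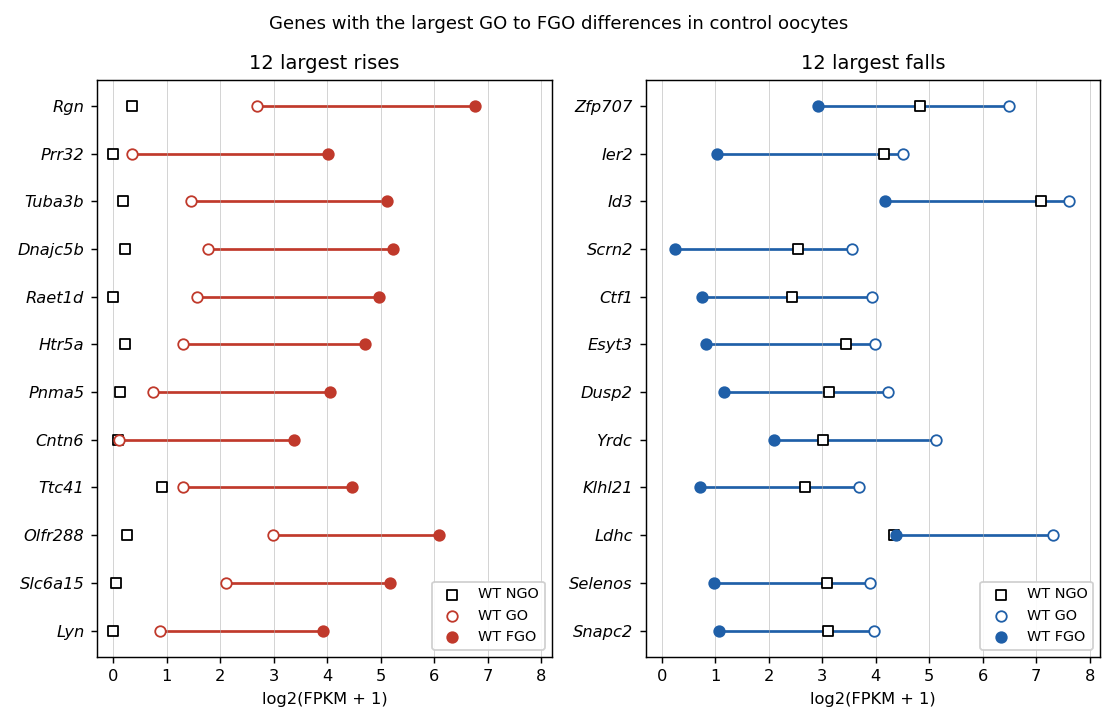
Values of log2(FPKM + 1) for the 12 named genes with the largest rises (left) and the 12 with the largest falls (right), in control NGO (squares), GO (open circles) and FGO (filled circles), 1 column each. Among the rises the NGO and GO marks sit low and only FGO is high, while among the falls NGO and GO are both above or near FGO.

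In FPKM, among genes over 0.05 in both columns, the largest differences were of abundant egg transcripts. Rn45s, listed at 0 in GO and at 4820 in FGO, is outside that limit and is described last. Bcl2l10, an oocyte member of the Bcl2 family, was the highest gene in FGO and read 4633 FPKM in GO and 6979 in FGO. Elobl read 2895 and 4472. Btg4, an adaptor of the CCR4-NOT deadenylase that is needed for maternal mRNA decay, read 2030 and 3407. Hpf1, a partner of the PARP1 enzyme, read 621 and 1469 and was the only 1 of the 10 largest such rises to be called. It was not called with equal totals, where its difference was 0.98.

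Birc5 (survivin) read 1423 and 2251 FPKM, H1f8, the oocyte linker histone, 2799 and 3604, and Sap18b 900.4 and 1683. Sap18b shares an identical transcript stretch with Sap18, and Fbxw14 (1783 and 2626) is 99.1% identical to Fbxw28. In the other direction Padi6, a component of the subcortical maternal complex, read 3216 FPKM in GO and 1670 in FGO. Its difference of -0.94 lay just short of a call. Hsp90aa1, a cytosolic HSP90 chaperone, read 1873 and 1147, and Eef1a1, an elongation factor of translation, 1529 and 1207. Both have near-identical copies in the genome.

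Genes of the egg coat, which surrounds the oocyte and binds sperm, include Zp1, Zp2 and Zp3, and these 3 were not called. Zp2 read 2892 FPKM in GO and 1595 in FGO, Zp3 3980 and 2909, and Zp1 1300.4 and 884. Of 11 genes of egg coat and gamete fusion, 1 was called higher (9.09%) and 2 lower (18.2%), beside 6.5% and 9.22% of all genes. Those lower were Cd9, the membrane protein needed for fusion (513 FPKM in GO, 2.56 times its FGO level), and Astl, the ovastacin protease that cleaves ZP2 after fertilisation (591 and 272). Oosp2, an oocyte-secreted protein, was higher at 71.8 and 173. With equal totals Oosp2 lost its call (0.99).

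Of 12 genes of oocyte-secreted factors and the dialogue with the follicle, 0 were called in either direction. Gdf9 and Bmp15, growth factors that act on granulosa cells, read 1610 and 1668 FPKM and 631 and 868. Efna1, an ephrin, had the largest difference of the list at 0.74, with 5.56 and 9.98 FPKM.

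Oocyte transcription factors moved both ways. Of 19 compared, 4 were called higher (1 with equal totals) and 4 lower (5). As deposited this was 21.1% each way, beside 6.5% higher and 9.22% lower of all genes. Lower were Tbpl2, the TBP paralogue that drives oocyte transcription (20.1, 37.8 and 9.18 FPKM in NGO, GO and FGO), Figla, the activator of the zona genes (29.6, 51.1 and 21.9), Sohlh1 and the X-linked Rhox8 (5.15 in GO and 1.19 in FGO). Higher were the homeobox genes Obox1, Obox2, Obox7 and Cphx1. Cphx1 read 22.1 in GO and 65.8 in FGO. Obox5, the most abundant of the list, read 625 and 1188 and had a difference of 0.93. Members of the Obox cluster are similar in sequence, so their reads are not fully separate.

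Of 34 maternal effect genes, 3 were called higher and 0 lower, beside 6.5% and 9.22% of all genes. The 3 were Omt2a (31.2 and 66.5 FPKM), Omt2b (39.0 and 96.2) and Nlrp4e (21.4 and 46.5). Omt2a and Nlrp4e lost the call with equal totals, at 0.81 and 0.82. Members of the subcortical maternal complex were not called: Nlrp5 read 518 and 351, Tle6 2078 and 1783, and Ooep 1278 and 1401. Npm2, a histone chaperone of the egg, read 2456 and 1936. The median of the list was 0.12.

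Cell cycle genes of meiotic maturation lay toward the higher side, with few calls. Of 45 compared, 35 lay above the median gene, and the median was 0.47 (0.21 with equal totals). Of the 45, 3 were called higher (6.67%) and 1 lower (2.22%), beside 6.5% and 9.22% of all genes. Called higher were Aurka, a spindle kinase (140 and 295 FPKM), Ccnb3, a cyclin on chromosome X (0.267 in NGO, 6.66 in GO and 19.8 in FGO), and Cks2 (21 and 44.6), a subunit of the Cdk1 complex. The lower call was Wee1, a kinase that inhibits Cdk1, at 18.5 and 4.59. With equal totals Ccnb3 alone kept its higher call, and Aurka stood at 0.81. Wee2, the oocyte counterpart of Wee1, read 86.8 and 153 with a difference of 0.81. Ccnb1, the activating cyclin of Cdk1, read 355 and 532, and Pttg1 (securin) 1340 and 1916.

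Of 40 spindle and chromosome passenger genes, 2 were called higher (5%) and 1 lower (2.5%), beside 6.5% and 9.22% of all genes. Haus1, a subunit of the augmin complex that branches microtubules, read 20.9 and 58.0 FPKM, and Kif18a, a kinesin, 6.85 and 15.5. Spc24, a kinetochore subunit, was lower at 64.3 and 26.3. Of 32 genes of cortical actin and polarity, 2 were called each way (6.25%). Spire1, an actin nucleator of the oocyte, read 34.5 and 78.6 FPKM, and Actg1, a cytoplasmic actin with near-identical copies, read 173 and 66.5. Kif18a and Spire1 lost their calls with equal totals (0.81 and 0.90).

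Of 24 genes of meiotic prophase, 3 were called higher (12.5%, beside 6.5% of all genes) and 0 lower, and the median was 0.03. Mei4, which is needed for meiotic double-strand breaks, read 0.136, 1.98 and 23.2 FPKM in NGO, GO and FGO. Tex11, an X-linked gene of crossover formation, read 0.637, 0.962 and 12.4, and Dmc1, the meiotic recombinase, 1.04 in GO and 3.20 in FGO. Dmc1 lost its call after rescaling (0.93). Sycp3, a component of the chromosome axis, was at 65.4 and 36.2. Of 25 cohesin and condensin genes, 2 were called each way (8%, beside 6.5% higher and 9.22% lower of all genes). Sgo2b read 0.269 and 7.53 and Sgo1, a protector of centromeric cohesin, 5.89 and 13.5, while the condensin gene Smc2 read 14.5 and 6.14 and Pds5a 6.90 and 1.71.

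The germ-cell RNA and piRNA genes, which silence transposons and organise RNA granules, held 5 lower calls (25%, beside 9.22% of all genes) and 0 higher among 20 genes. Piwil2, a PIWI protein, read 5.94, 9.81 and 0.886 FPKM in NGO, GO and FGO. Ddx4 (the vasa helicase) read 37.7, 72.8 and 15.4. Tdrd9 read 18.2 and 5.64, Pld6 4.91 and 0.773, and Nanos1 16.7 and 6.69 in GO and FGO. As deposited, each of these 5 was highest in GO. The NGO column is low as a whole (factor of 0.51 beside 1.29), so their order in NGO and GO can depend on the scaling. Gtsf1, the most abundant of the list, read 735 and 1039.5 and was not called.

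Of 39 genes that store maternal mRNA, 4 were called lower (10.3%, beside 9.22% of all genes) and 0 higher, and the median was 0.05. Patl2, a repressor of translation in oocytes, read 53.7, 125 and 24.0 FPKM in NGO, GO and FGO. Pabpc1, a poly(A)-binding protein, read 8.0 and 1.75, and Ddx6, a helicase of RNA granules, 5.78 and 1.49. Cpeb1, which binds the cytoplasmic polyadenylation element, read 326 and 338, and Zar1 1064 and 949.8.

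Of 48 genes that shorten and degrade mRNA, 2 were called higher (4.17%) and 7 lower (14.6%), beside 6.5% and 9.22% of all genes, and the median was 0.13. Cnot7, a catalytic subunit of the CCR4-NOT deadenylase, read 11.5, 37.3 and 108 FPKM in NGO, GO and FGO, and Upf2 8.88 and 24.0 in GO and FGO. Lower were Zfp36l2, which binds AU-rich elements and recruits the deadenylase (16.0 and 1.91), the m6A readers Ythdf1 (21.5 and 6.34) and Ythdf2 (65.0 and 23.1), Tob1 (7.76 and 2.62), Smg5, Exosc2 and Exosc4. Smg5 lost its call after rescaling, at -0.94. Dcp1a, of the decapping complex, read 62.3 and 121 with a difference of 0.94.

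DNA methylation and imprint genes lay toward the lower side, with 13 of 16 below 0, 3 above the median gene and a median of -0.26. Only Kdm1b was called. It encodes the H3K4 demethylase needed for maternal imprints and read 31.6 and 11 FPKM. Dnmt1, the maintenance methyltransferase, read 447 and 311, and Dnmt3a 19.6 and 18.8. Dnmt3l, the cofactor of de novo methylation, went the other way at 6.79 and 14.3, a difference of 0.97 just short of a call. Zfp57, which protects imprints, read 1019 and 1583.

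Of 58 genes of histone modification and remodelling, 1 was called higher (Nsd1, an H3K36 methyltransferase, 6.07 and 15.4 FPKM) and 3 lower (Ehmt2, Setd1b and Hdac1). These were 1.72% and 5.17%, beside 6.5% and 9.22% of all genes. Hdac1, a histone deacetylase at 11.7 and 5.21, has near-identical copies. Among 21 linker and variant histone genes the 1 call was H2az1, the gene of H2A.Z, lower at 108 and 30.1 FPKM. Of 13 core and linker histones of the replication-dependent kind, 5 were called higher (38.5%) and 2 lower (15.4%), with a median of 0.91. They summed to only 77.8 FPKM in GO. H2ac1 read 20.8 and 43.1, and H1f2 6.21 and 2.32. After rescaling 3 were higher and 1 lower, with H2ac1 and H4c8 among those that lost their calls.

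For transcription machinery, 3 of 60 RNA polymerase II and elongation genes were called higher (5%) and 5 lower (8.33%), beside 6.5% and 9.22% of all genes. Of the 60, 42 lay above the median gene. Among the polymerase subunits, Polr2k read 6.61 and 19.3 FPKM and Polr2d 176 and 426, both called higher. Polr2a, the gene of the catalytic subunit, was lower at 3.86 and 1.28, as were the elongation genes Ell2 (23.4 and 5.13), Nelfb (6.98 and 1.85) and Cdk9 (2.46 and 0.731), and Gtf2h4. Cdk9 lost its call after rescaling, at -0.90. The other 9 Polr2 subunits compared were not called.

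RNA polymerase I and nucleolar genes held 7 lower calls (13.7%) and 1 higher (1.96%) among 51, beside 9.22% and 6.5% of all genes. Of the 51, 33 lay above the median gene. Ubtf, the upstream binding factor of ribosomal DNA, read 2.76, 12.5 and 1.26 FPKM in NGO, GO and FGO. Taf1c, of the promoter selectivity factor, read 7.25 and 0.866, and Ddx47, a helicase of ribosome assembly, 52.3 and 9.70. Nop2, Rrs1, Bop1 and Fbl were the other lower calls, and Nop10 (12.3 and 25.8) the higher. Nop10 lost its call after rescaling (0.97), and with equal totals 0 of the list were higher. Of 39 R-loop and RNase H genes, 1 was called each way (2.56%). Rpa3, of the single-strand binding complex, read 79.3 and 173, and Alyref, of mRNA export, 32.0 and 15.4. Rpa3 lost its call with equal totals (0.85).

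Among 41 double-strand break repair genes, 2 were called each way (4.88%, beside 6.5% higher and 9.22% lower of all genes). Rad51b read 1.97 and 5.11 FPKM and lost its call after rescaling (0.96). Eme1, of a resolvase of DNA junctions, read 8.42 and 3.09, and Parp1, the sensor of DNA breaks, 15.8 and 7.35. Parp1 lay just short of a call after rescaling, at -0.999. Of 29 genes of the p53 family and apoptosis, 0 were higher and 2 lower (6.90%), Mcl1 (6.53 and 1.27) and Bcl2l2, both survival genes. Trp63, the p53 relative that guards oocytes against DNA damage, read 12.7 and 5.93 with a difference of -0.98.

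Among ribosomal protein genes and nuclear genes of oxidative phosphorylation few members were called, and most lay above the median gene. Over all genes 6.5% were called higher and 9.22% lower. Other metabolic lists differed: 12 of 18 citric acid cycle genes lay above the median gene. For glycolysis and the pentose phosphate pathway it was 9 of 26, and for fatty acid genes 7 of 21. Of 78 cytosolic ribosomal protein genes, 54 lay above the median gene, 4 were called higher and 2 lower, and the median was 0.26. Of 74 mitochondrial ribosomal protein genes, 55 lay above the median gene, 0 were called higher and 3 lower, and the median was 0.30. Called lower were Mrps26 (54.3 and 11.4 FPKM), Mrps34 and Mrpl43. Of 80 nuclear genes of oxidative phosphorylation, 65 lay above the median gene, 6 were called higher and 2 lower, and the median was 0.35. The higher calls included Cox6a2 (6.88 and 19.7) and Uqcr10 (11.9 and 29.6). Uqcrc1, a core protein of respiratory complex III, was among the lower calls at 51.6 and 8.94. With equal totals 1 of the 6 higher calls was left.

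Proteasome genes, whose complex degrades ubiquitin-tagged proteins, lay above the median gene in 30 of 35 cases with a median of 0.46 (0.20 with equal totals). The most abundant, Psmd4, read 563 and 874 FPKM. The 2 calls went against the group, with Psmd13 at 23.4 and 4.80 and Psmb5 at 27.0 and 12.6. Spliceosome genes had 1 higher and 4 lower calls of 54 (1.85% and 7.41%), beside 6.5% and 9.22% of all genes. Translation factors had 0 and 3 of 46 (0% and 6.52%). Eif4h, a helper of the initiation helicase, read 133 and 53.5. Of 19 aminoacyl-tRNA synthetases and 18 citric acid cycle genes, 0 were called. Transcript length went with the difference over all genes, as described below, and its part in the medians of these lists was not tested.

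Cytosolic chaperones held 6 lower calls (18.8%) and 1 higher of 32, beside 9.22% and 6.5% of all genes, and 5 lower after rescaling. Cct6a, a subunit of the TRiC chaperonin, read 27.6 and 4.39 FPKM, Hsph1 159 and 53.8, and Hsp90ab1 341 and 151. Cct5, another TRiC subunit, was not lower, at 311 and 505. Dnajb4, a co-chaperone, was higher at 3.42 in NGO, 24.2 in GO and 95.2 in FGO. Of 27 genes of endoplasmic reticulum stress, the 1 call was Xbp1, lower at 3.50 and 0.387.

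Immediate early and Id genes, which respond to growth factor signals, had the lowest median of the lists, at -0.69, with 3 lower calls (23.1%) and 0 higher among 13, beside 9.22% and 6.5% of all genes. They summed to 282 FPKM in GO and 75.3 in FGO, and Id3, at 195 and 17.0, made up most of the GO sum and of its change. Id1 read 3.84 and 1.08 and Egr1 14.4 and 7.86. Dusp1 was not lower, at 19.9 and 24.6.

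Mitochondrial DNA and import genes held 6 lower calls (16.7%, beside 9.22% of all genes) and 0 higher among 36. Tfam, which packages mitochondrial DNA, read 9.33, 28.6 and 8.27 FPKM in NGO, GO and FGO. Twnk, the mitochondrial helicase, read 64.3 and 24.7 in GO and FGO, Polg2 5.72 and 2.27, and Tomm20, an import receptor, 17.3 and 4.64. Timm17a, the most abundant of the list, read 626 and 837. Polg2 lost its call after rescaling (-0.99), which left 5.

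The cholesterol, glucose, calcium and PI3K lists held between 7.69% and 12% lower calls, beside 9.22% of all genes. Cholesterol synthesis had 0 higher and 2 lower of 20, with Pmvk, a kinase of the mevalonate pathway, at 26.3 and 3.21 FPKM. Glycolysis and the pentose phosphate pathway had 1 higher (Ldha, 0.131 and 2.27) and 2 lower of 26. Gapdh read 15.2 and 3.91, but 70 near-identical genes could share its reads. Calcium and zinc signalling had 3 lower calls of 25, with Stim1, the sensor of calcium stores, at 5.09 and 0.202. PI3K, Foxo3 and mTOR genes had 3 lower of 31 (2 after rescaling), among them Eif4ebp1 (16.5 and 4.91) and Rptor (6.28 and 1.73). Nuclear transport had 3 lower of 53 (5.66%), Ran, Xpot and Tnpo3.

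Of the remaining lists, fatty acid genes had 0 higher and 2 lower calls of 21, amino acid and one-carbon genes 1 and 1 of 25, and cortical granule and exocytosis genes 1 and 3 of 32 (0 and 3 after rescaling). Lysosome and autophagy genes had 0 and 2 of 37 (0 and 1), and ubiquitin ligases and deubiquitinases 0 and 2 of 46. Of 10 early-embryo genes, 2 were higher and 2 lower (20% each). Over all genes 6.5% were called higher and 9.22% lower. Zscan4d, a gene of the 2-cell embryo with near-identical copies, read 1.49 and 7.81 FPKM, and Dppa5a, also with copies, 371 and 158.

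**Figure D3:**
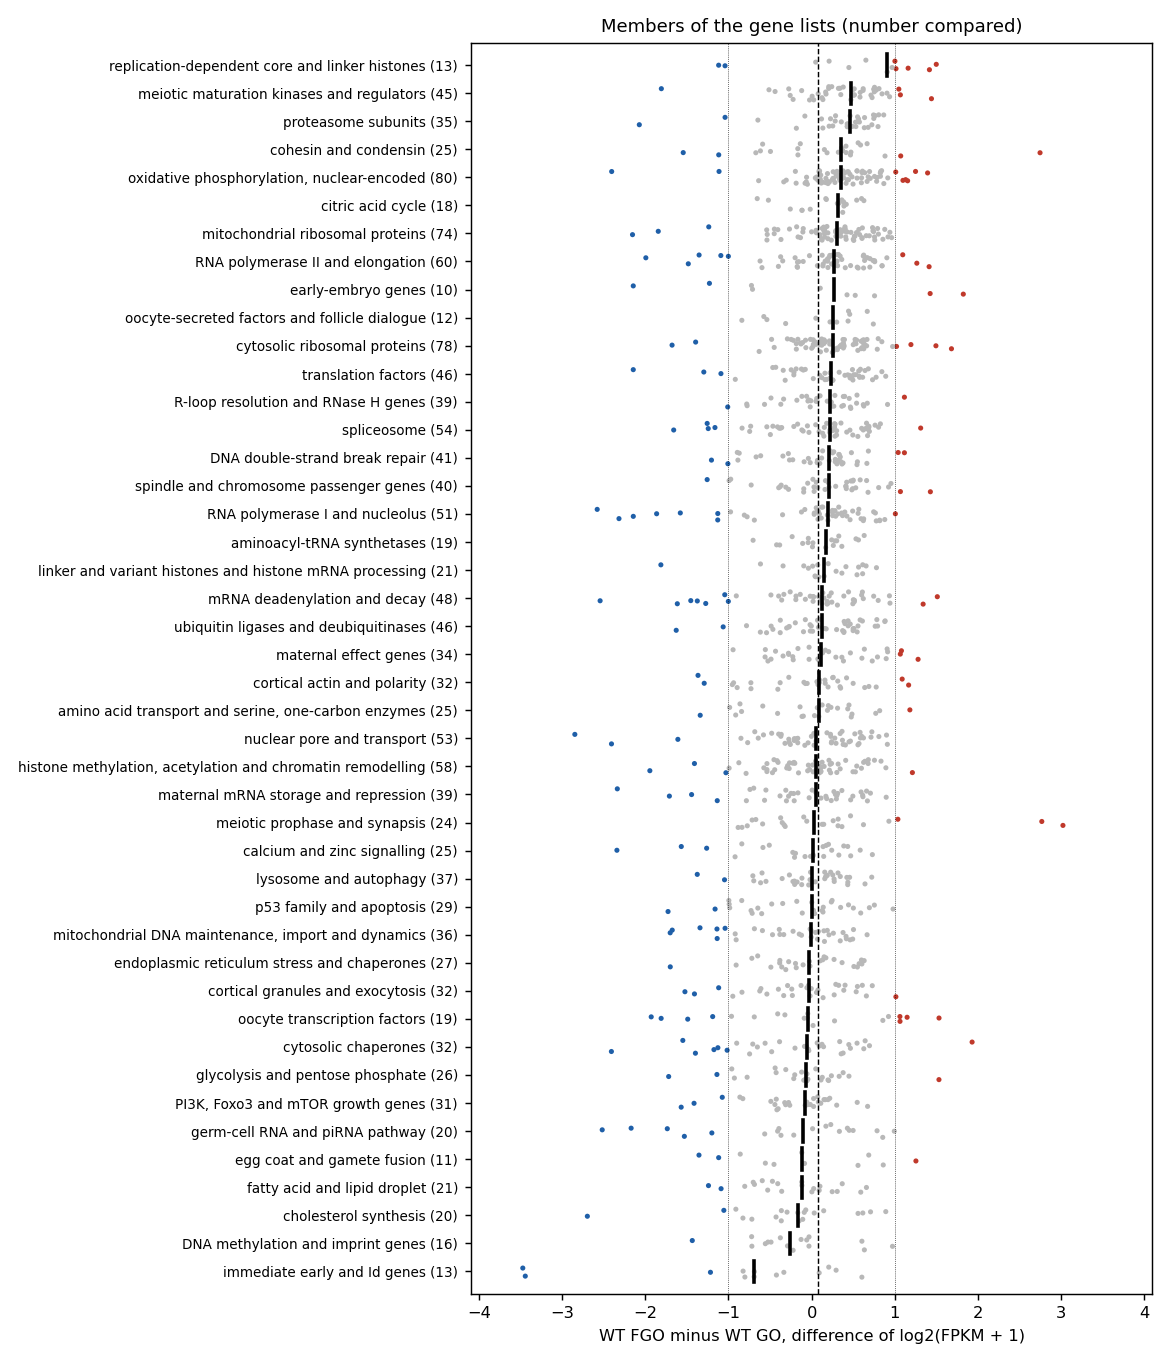
Each row is a gene list with its number of compared members; points are members' differences of log2(FPKM + 1), FGO minus GO in controls, red at 1 or more, blue at -1 or less, with the list median as a black bar. The dashed line is the median of all genes (0.08) and the list medians run from -0.69 to 0.91, with most members of most lists between the dotted lines at -1 and 1.

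Genes that were higher in FGO were more frequent among genes with few CG dinucleotides near their start. A promoter window was found for 81.1% of the genes compared. Of 344 genes with up to 2 CG in the 300 bases, 25% were called higher and 4.94% lower. With 3 to 5 CG 16.9% were higher, with 6 to 10 it was 11.5%, with 11 to 20 it was 5.22%, and of 4316 genes with more than 20 it was 3.15%. The share called lower was 9.48% in that last group.

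The same order was seen among genes at 5 to 100 FPKM in GO, from 20.8% at up to 2 CG to 2.25% above 20. It was also seen at a transcript GC content of up to 45% (23.5% at up to 5 CG and 4.59% above 20) and over 55% (8.82% and 1.48%). In KO, after rescaling, the shares were 27.9% at up to 2 CG and 2.64% above 20. CG-poor genes had a lower GO level, with a median of 5.29 FPKM against 10.6.

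Genes that were lower in FGO were more frequent among GC-rich transcripts. For the longest coding transcript of GENCODE M21, 20.2% of 357 genes with a GC content over 60% were called lower and 1.40% higher. Between 55% and 60% GC these shares were 13% and 2.63%, and up to 40% GC they were 7.84% and 9.18%. The steps from 40% to 50% were small. In KO, after rescaling, 13.2% of genes over 60% GC and 1.72% of genes up to 40% GC were lower. Transcript GC content and promoter CG number were nearly unrelated across genes (Spearman rho of 0.03, as a description).

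Short transcripts were more often higher. Of 632 genes with transcripts up to 1000 nt, 13.4% were called higher and 5.06% lower, while above 4000 nt it was 3.84% and 8.28%. Within a GC content of 45% to 50% the shares called higher were 16.5% for the shortest and 4.47% for the longest class. Amplification and counting can depend on length and GC content. Their part in these shares was not tested.

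**Figure D4:**
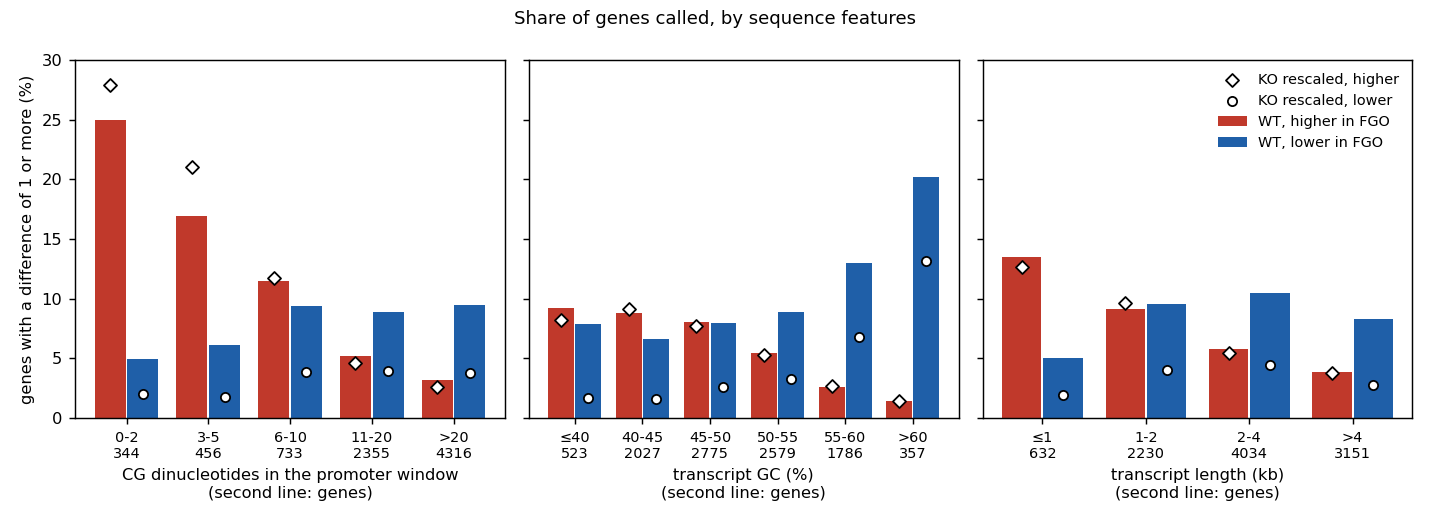
Bars give the percent of genes called higher (red) and lower (blue) in control FGO against GO, by the number of CG in the promoter window, the GC content and the length of the transcript, with the number of genes under each class; diamonds and circles give the KO shares after rescaling. The higher calls fall from 25% to 3.15% with promoter CG, and the lower calls climb to 20.2% in transcripts over 60% GC.

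Motifs near the end of the transcript were about as frequent in called genes as in all genes. The cytoplasmic polyadenylation element, which CPEB1 binds (TTTTAT or TTTTAAT on the sense strand, in the last 150 bases), was found in 24.8% of all genes with a transcript, 24.8% of those higher and 23.0% of those lower. The polyadenylation signal AATAAA was in 67.1%, 67.8% and 66.2%. The AU-rich pentamer ATTTA, which lies within or overlaps other A- and T-rich motifs, was in 29.8%, 29.4% and 28.4%. The Pumilio motif TGTANATA was in 6.60%, 4.83% and 7.10%. Where a gene has several transcript ends, only that of the longest was read.

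In the promoter window 10.2% of genes with TATAAA on either strand were called higher, against 5.87% without it. The motif was in 13% of the windows of all 18685 genes in the RefSeq table. For the homeobox core TAATTA on either strand these shares were 11.5% and 6.01%, and 4.68% of all windows hold it. For the E-box CANNTG they were 7.17% and 4.46%, with 69.2% of all windows, and for its form CACGTG 4.02% and 6.42%, with 8.13%. TATAAA and TAATTA are free of CG, so they are more likely in CG-poor windows, and CACGTG holds a CG itself.

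Chromosome X held 39 genes called higher among 328 (11.9%), against 6.31% on the autosomes. The median GO level of X genes was lower, at 6.54 FPKM against 9.62 on the autosomes, and its part in this share was not tested. The shares called lower were 9.15% on X and 9.22% on the autosomes. The shares on single autosomes ran from 4.36% on chromosome 19 to 10.0% on chromosome 3. Long noncoding RNA genes were called higher in 56 of 259 cases (21.6%) and transcribed pseudogenes in 17 of 76 (22.4%), beside 5.96% of protein-coding genes. Their median GO levels were lower, at 3.96 FPKM for noncoding and 9.70 for protein-coding genes.

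The same stage step in KO oocytes uses neither control column. As deposited, the KO step was shifted as a whole: the summed FPKM was 2.05 times higher in FGO than in GO, 3946 genes (39%) were called higher and 52 (0.514%) lower. After rescaling, 649 (6.42%) were higher and 370 (3.66%) lower. The 2 factors were 1.22 for KO GO and 2.26 for KO FGO.

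Genes called higher in controls were mostly higher in KO as well. Of the 657, 651 had a higher rescaled value in KO FGO than in KO GO, 459 (69.9%) were called higher, and 0 were called lower. Their median rescaled difference was 1.28 in controls and 1.26 in KO. Of the 932 genes called lower in controls, 911 were lower in KO after rescaling, but only 269 (28.9%) were called, and the medians were -1.30 and -0.80. As deposited, 41 of them were called lower in KO and 11 higher, with a median of -0.15.

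Single genes are given as examples. Id3 read 195 and 17.0 FPKM in controls and 184 and 101 in KO. Zfp707 read 89.2 and 6.55 in controls and 109 and 61.5 in KO. Ctf1 read 14.3 and 0.695 in controls and 12.7 and 13 in KO, and Ldhc 157 and 19.9 in controls and 107 and 111 in KO. Among rises, Slc6a15 read 3.31 and 35.4 in controls and 0.774 and 61.6 in KO. These values are as deposited, and the KO FGO column is high as a whole (factor of 2.26).

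Called genes with the smallest or the most opposite rescaled difference in KO included Atp5k, a subunit of ATP synthase, at 42.3 and 93.9 FPKM in controls and 22.6 and 35.6 in KO. S100a16 read 1.19 and 14.4 in controls and 7.65 and 14.5 in KO. Ddx47 was lower in controls (52.3 and 9.70) and read 21.4 and 73.0 in KO. Nkx6-2, a homeobox gene, read 9.82 and 4.25 in controls and 5.26 and 13.1 in KO. Whether the 2 genotypes differ at these genes was not tested, since each value is a single column.

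**Figure D5:**
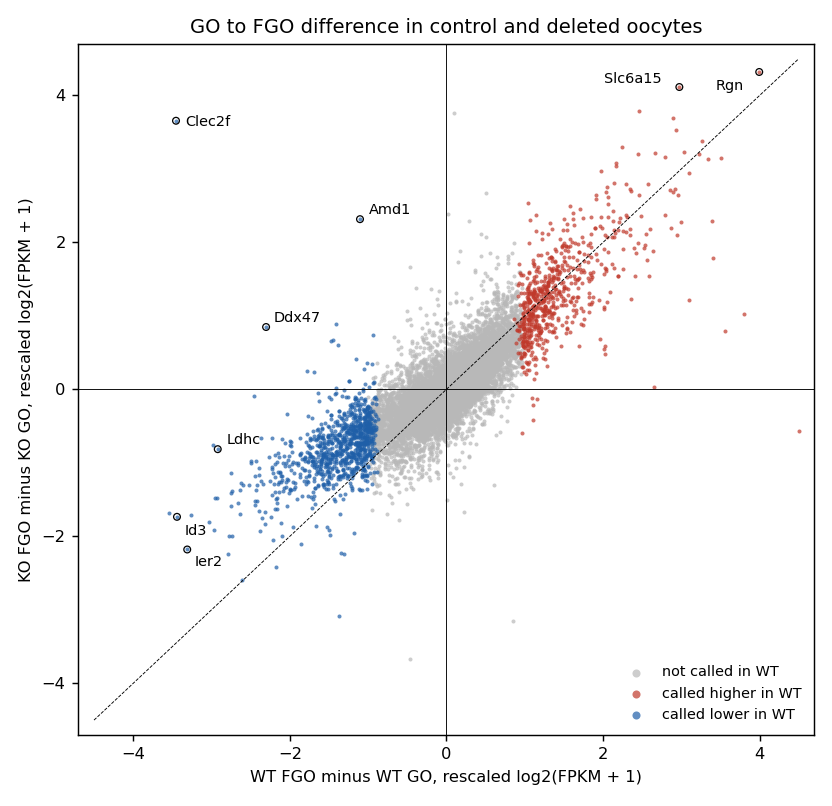
Rescaled differences of log2(FPKM + 1), FGO minus GO, in controls (x axis) and KO (y axis) for the 10110 genes, coloured by their call in controls, with points beyond 4.5 drawn at the edge. Red points follow the dashed line of equality, with medians of 1.28 and 1.26, while blue points lie nearer to 0 in KO, with medians of -1.30 and -0.80.

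The preceding step shares the control GO column, so its values are given only side by side. Of the 657 genes called higher in FGO, 636 were lower in NGO than in GO, with medians of 0.543, 3.23 and 12.6 FPKM in NGO, GO and FGO. Of the 932 called lower, 897 were also lower in NGO than in GO, with medians of 2.81, 6.82 and 1.66. At the medians as deposited, the first group climbed over all 3 stages and the second was highest in GO. The NGO column is low as a whole (summed FPKM of 156837 beside 384421 in GO, factor of 0.51 beside 1.29). A lower value in NGO is therefore not particular to these genes. The order of NGO and GO after rescaling was not examined.

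Genes at or under 0.05 FPKM in 1 of the 2 control columns and at 5 FPKM or more in the other are given without a fold, and 5 met this and the other limits on named genes. In all, 6 of the genes compared were listed at exactly 0 in control GO or FGO. For the 45S precursor of ribosomal RNA (Rn45s) the control columns list 0 for NGO and GO and 4820 FPKM for FGO, and the KO columns 3173 for GO and 3963 for FGO. Tgoln2 was at 0.626 in NGO, 8.39e-07 in GO and 9.86 in FGO, and Trim31 at 0.0251 in GO and 5.07 in FGO. Ifi47, an interferon-induced GTPase, was at 11.4 in GO and 0.0391 in FGO, and Clec2f at 12.8 in GO and listed at 0 in FGO. In a table without counts a listed 0 can be a failed estimate.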

How the data were processed

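Polyadenylated RNA of 12 oocyte samples was read as 150 bp pairs from 500 pg of cDNA, per the labels. The authors deposited FPKM adjusted to the ERCC spike-in, in 6 columns, 1 per genotype and stage. Trim Galore 0.6.7, HISAT2 2.2.1, Cufflinks 2.2.1 and mm10 are named, without roles, in the submitters' processing notes. How the adjustment was computed, and on which annotation, is not stated in the sources read here. Read depth is unknown, and with it the counting error.

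The table held 25912 lines for 25164 symbols. Lines that were not numbers (2, Gm5901 and Syn3) were left out, and 333 symbols on several lines were represented by their highest line on average, giving 25162 genes. The level filter (a 6-column mean of 1 FPKM or more) passed 10110. Of the genes compared, 44 had several lines and 6 were listed at 0 in control GO or FGO. Differences were taken on log2(FPKM + 1) and called at 1 or more in size. With 1 column per group no test was possible. The steps were tested on simulated data (Python 3.11.15, numpy 2.4.6, pandas 2.3.3).

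Named genes had at least 5 FPKM in the higher column, over 0.05 in both, a symbol on a single line and a proper gene name. They were the 20 largest rises and falls, the 10 largest in FPKM each way, the 10 highest in FGO, and per list the 3 largest differences and 2 highest levels. Rnaseh1, genes near 0 in 1 column, and the 5 per direction with the smallest or most opposite change in KO were added. Other called list members and some well-known list members (such as Wee2, Dcp1a and Nlrp5) were named after their values were seen. The members, lists and rules were chosen with earlier results of these data known.

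Transcripts came from GENCODE M21 (the longest protein-coding one, 99.4% of genes) and promoter windows from RefSeq on GRCm38.p6 (81.1% of genes, 77.0% of those higher and 78.6% of those lower, so windows are described by class and not over the called genes). Where a gene had several windows the 5′-most was used. Near copies were found with blastn 2.17.0 at 95% identity over 50% of the transcript. Alternatives were median-ratio rescaling, equal totals, a pseudocount of 0.1, other filters, only symbols on a single line and no genes listed at 0.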

Additional observations from a re-analysis of the deposited data

Results flagged for a closer look

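In 2 genes the control and KO steps were called in opposite directions after rescaling, and the difference between the genotypes was not tested because each value is 1 column. Amd1, an enzyme gene of polyamine synthesis, had a rescaled difference of -1.103 in controls (8.65 FPKM in GO and 3.38 in FGO) and 2.316 in KO (0.0150 and 9.13). Its transcript is 99.6% identical to that of Amd2, so reads of the 2 genes could be split. Clec2f, a C-type lectin gene, had -3.453 in controls (12.8 in GO and listed at 0 in FGO) and 3.655 in KO (1.97 and 71.9). The control value of Clec2f is against a listed 0, so its size depends on the pseudocount and it is neither a fold nor a bound.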

How the results depend on the processing

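The 657 higher and 932 lower calls became 584 and 842 with median-ratio rescaling, and 861 and 1341 with a pseudocount of 0.1. They were 749 and 983 with no filter and 690 and 936 with the filter on the 2 control columns. Only symbols on a single line gave 647 and 926, and leaving out genes listed at 0 gave 655 and 929. With equal column totals they were 389 and 1184, with a median difference of -0.15 in place of 0.08. A mean of at least 5 FPKM left 6593 genes, of which 362 were higher and 427 lower, because fewer genes were compared. Of the 932 lower genes, 41 were called lower in KO as deposited and 269 after rescaling. The called direction of the 267 named genes was never reversed under these settings; 17 lost their call with equal totals (among them Aurka, Hpf1, Nsd1, Uqcr10 and Atp5k) and 4 with rescaling (H2ac1, H4c8, Rad51b and Rpl30), beside other list members such as Dmc1, Nop10, Parp1 and Polg2, while 12 and 9 gained one with equal totals and a pseudocount of 0.1. The medians of 43 of 44 lists moved by more than 0.1 with equal totals, and 0 did with rescaling. No paired analysis was possible because the table has 1 column per genotype and stage. For the same reason leaving out a replicate was not run.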

Other observations

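Genes were also grouped by the letters their symbols start with, a grouping made after the values were seen and described without a test. Of 45 such groups with at least 20 genes compared, the Zbtb genes had the largest share of lower calls, 9 of 30 (30%). They encode zinc finger proteins with a BTB domain, and had 1 higher call (3.33%) and a median difference of -0.43. Over all genes 9.22% were called lower and 6.5% higher. In KO, after rescaling, 2 of the 30 Zbtb genes were called lower and their median was -0.32. Predicted genes named Gm had 49 higher and 7 lower calls of 200 (24.5% and 3.5%), with a median of 0.51. In KO they had 57 and 4 with a median of 0.57. Of 26 genes whose symbols start with Cd, 8 were higher (30.8%) and 1 lower (3.85%). Trim genes had 1 higher (2.94%) and 6 lower (17.6%) of 34. Rab genes had 3 (6.25%) and 8 (16.7%) of 48. The groups given here were picked from the 45 with their values known.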
